A study of Mus musculus with 6 samples.

Results

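The 10 genes described here encode enzymes of glycolysis and were chosen by name from the 55421 genes counted: *Hk2*, *Hk3*, *Gpi1*, *Pfkl*, *Tpi1*, *Gapdh*, *Pgk1*, *Pgam1*, *Pkm* and *Ldha*. They were measured by RNA sequencing of splenic monocytes from C57BL/6 mice, with 3 IL-4Rα+/+ and 3 IL-4Rα-/- animals and 1 library per animal. IL-4Rα is the receptor chain shared by interleukin-4 and interleukin-13, and the IL-4Rα-/- mice lacked it in the whole body rather than in monocytes alone, so the environment of the cells was changed as well. The IL-4Rα+/+ mice were littermates. Monocytes were left untouched while antibodies removed other leukocytes from the spleen cells. No age, sex or treatment is given for these 6 mice in the labels.

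Glycolysis splits glucose into pyruvate in the cytosol and yields ATP without oxygen, and lactate dehydrogenase then turns pyruvate into lactate and restores NAD+. Hexokinase, phosphofructokinase and pyruvate kinase catalyse the steps that are irreversible in the cell, while the enzymes between them work near equilibrium. Monocytes and macrophages raise glycolysis when they are activated by microbial products or lack oxygen, and the transcription factor HIF-1 drives many of the genes. Interleukin-4, by contrast, is known for macrophages that rely more on oxidative metabolism. The question was whether mRNA of the enzymes differed in monocytes that cannot receive the interleukin-4 signal.

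Promoter sequences are shown for 4 of the genes, since the best known control of this pathway acts through short motifs near the start sites. HIF-1 binds around the cores ACGTG and GCGTG, and the E-box CACGTG, which contains ACGTG on both strands, is bound by Myc and ChREBP. The windows come from RefSeq on GRCm38.p6 and run 5′ to 3′ from 250 bases before to 50 bases after a start site listed there. Such a start can differ from the outermost start of the gene, and the *Ldha* window shown lies inside the gene positions given below. Capitals mark every ACGTG or GCGTG on either strand, so that CACGT and CACGC are the same cores on the other strand. *Ldha* is shown because it held the most matches of the 10 genes, *Pgk1* as a gene of the lower pathway with a pair of matches, and *Hk2* and *Hk3* as hexokinases whose levels followed different libraries.
Ldha, chr7:46845554-46845853, plus strand: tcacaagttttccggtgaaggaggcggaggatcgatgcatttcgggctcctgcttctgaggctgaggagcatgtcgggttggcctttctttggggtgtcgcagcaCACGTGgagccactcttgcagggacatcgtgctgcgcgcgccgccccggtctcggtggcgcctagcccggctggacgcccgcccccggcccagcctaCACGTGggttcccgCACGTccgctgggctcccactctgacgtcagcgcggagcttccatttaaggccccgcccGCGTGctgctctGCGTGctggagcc
Pgk1, chrX:106186850-106187149, plus strand: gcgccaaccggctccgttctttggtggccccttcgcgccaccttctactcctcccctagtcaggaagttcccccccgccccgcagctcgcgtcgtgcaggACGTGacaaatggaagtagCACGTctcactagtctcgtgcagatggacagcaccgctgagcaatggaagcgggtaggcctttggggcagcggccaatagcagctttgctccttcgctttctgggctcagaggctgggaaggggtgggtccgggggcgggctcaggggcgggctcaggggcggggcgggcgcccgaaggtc
Hk2, chr6:82774405-82774704, minus strand: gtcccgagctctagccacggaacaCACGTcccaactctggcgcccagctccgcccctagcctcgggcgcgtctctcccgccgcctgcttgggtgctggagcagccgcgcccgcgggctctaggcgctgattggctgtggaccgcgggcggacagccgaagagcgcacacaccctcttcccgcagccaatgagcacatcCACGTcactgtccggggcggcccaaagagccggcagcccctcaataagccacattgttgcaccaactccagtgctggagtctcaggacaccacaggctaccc
Hk3, chr13:55021336-55021635, minus strand: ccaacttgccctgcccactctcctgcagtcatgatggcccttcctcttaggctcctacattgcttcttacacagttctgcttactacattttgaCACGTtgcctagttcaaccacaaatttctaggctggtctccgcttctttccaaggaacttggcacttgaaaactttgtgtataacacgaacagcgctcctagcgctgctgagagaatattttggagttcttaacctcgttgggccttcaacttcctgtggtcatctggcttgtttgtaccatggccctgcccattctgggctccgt
The *Ldha* window held 5 matches to ACGTG and 2 to GCGTG, and CACGTG, which reads the same on both strands, gave 4 of the former at 2 positions. *Pgk1* and *Hk2* each held 2 ACGTG cores and *Hk3* held 1. Of the other genes, *Gapdh* and *Pgam1* each had 1 ACGTG and 2 GCGTG matches, *Pfkl* had 1 GCGTG, and the windows of *Gpi1* and *Tpi1* had neither core. *Pkm* and *Ldha* each have a second window; that of *Pkm* held 2 ACGTG cores where its first held none, and that of *Ldha* held 2 GCGTG cores. Over all 32851 windows of this length, ACGTG occurred in 19.6%, GCGTG in 32.4%, either core in 43.8% and CACGTG in 7.15%. Such matches are common, and they are letters in a window, not bound sites.

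Levels of the 10 genes are given in CPM, that is, counts relative to the total of the library after TMM adjustment for its composition. Each library held 26807281 to 29033297 reads on genes. The genes were all well above detection, from *Pgam1* at a mean near the middle of the genes tested to *Pkm* among the most abundant. In each list of values, replicates 1, 2 and 3 of IL-4Rα+/+ come first. Positions are on GRCm38, from an annotation close to that of the study.

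Hexokinase traps glucose in the cell as glucose 6-phosphate. *Hk2* (chromosome 6, 82725025 to 82774454, minus strand), the inducible form that can bind mitochondria, had 103, 114 and 147 CPM in IL-4Rα+/+ and 104, 105 and 128 CPM in IL-4Rα-/- mice. It was highest in IL-4Rα+/+ replicate 3, with the other 5 libraries at 128 CPM or less. *Hk3* (chromosome 13, 55005985 to 55021385, minus strand), a form typical of myeloid cells, had 112, 113 and 129 CPM in IL-4Rα+/+ and 122, 134 and 119 CPM in IL-4Rα-/- mice. Its highest library was only 1.19-fold above its lowest, the narrowest range of the 10 genes.

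*Gpi1* (chromosome 7, 34201330 to 34230336, minus strand), which converts glucose 6-phosphate to fructose 6-phosphate, had 509, 494 and 554 CPM in IL-4Rα+/+ and 526, 610 and 491 CPM in IL-4Rα-/- mice. The genotypes overlapped, with an IL-4Rα-/- mouse at each end. *Pfkl* (chromosome 10, 77986947 to 78010083, minus strand), the liver-type phosphofructokinase that commits sugar to glycolysis, had 98.2, 73.4 and 70.2 CPM in IL-4Rα+/+ and 74.6, 79.9 and 64.8 CPM in IL-4Rα-/- mice. Here IL-4Rα+/+ replicate 1 stood alone above 80 CPM. *Tpi1* (chromosome 6, 124810586 to 124814296, minus strand), which interconverts the triose phosphates, had 120, 114 and 131 CPM in IL-4Rα+/+ and 130, 138 and 125 CPM in IL-4Rα-/- mice, a range of 1.22-fold.

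The lower part of the pathway varied more between mice. *Gapdh* (chromosome 6, 125161715 to 125166467, minus strand), which makes the first NADH, had 217, 194 and 271 CPM in IL-4Rα+/+ and 227, 335 and 220 CPM in IL-4Rα-/- mice. *Pgk1* (chromosome X, 106187100 to 106203699, plus strand), which makes the first ATP, had 80.2, 66.3 and 85.7 CPM in IL-4Rα+/+ and 78.8, 106 and 73.9 CPM in IL-4Rα-/- mice. *Pgam1* (chromosome 19, 41911923 to 41918660, plus strand), the phosphoglycerate mutase, had 14.1, 13.1 and 21.0 CPM in IL-4Rα+/+ and 13.2, 24.2 and 15.6 CPM in IL-4Rα-/- mice. All 3 genes were highest in IL-4Rα-/- replicate 2, next in IL-4Rα+/+ replicate 3, and lowest in IL-4Rα+/+ replicate 2.

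*Pkm* (chromosome 9, 59656368 to 59679375, plus strand), the pyruvate kinase of most tissues, had 799, 785 and 1105 CPM in IL-4Rα+/+ and 859, 1299 and 896 CPM in IL-4Rα-/- mice. *Ldha* (chromosome 7, 46841475 to 46855627, plus strand), which makes lactate, had 275, 220 and 283 CPM in IL-4Rα+/+ and 262, 358 and 254 CPM in IL-4Rα-/- mice. Both had their highest value in IL-4Rα-/- replicate 2 and their lowest in IL-4Rα+/+ replicate 2. The gene counts do not separate the M1 and M2 splice forms of *Pkm*.

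**Figure D1:**
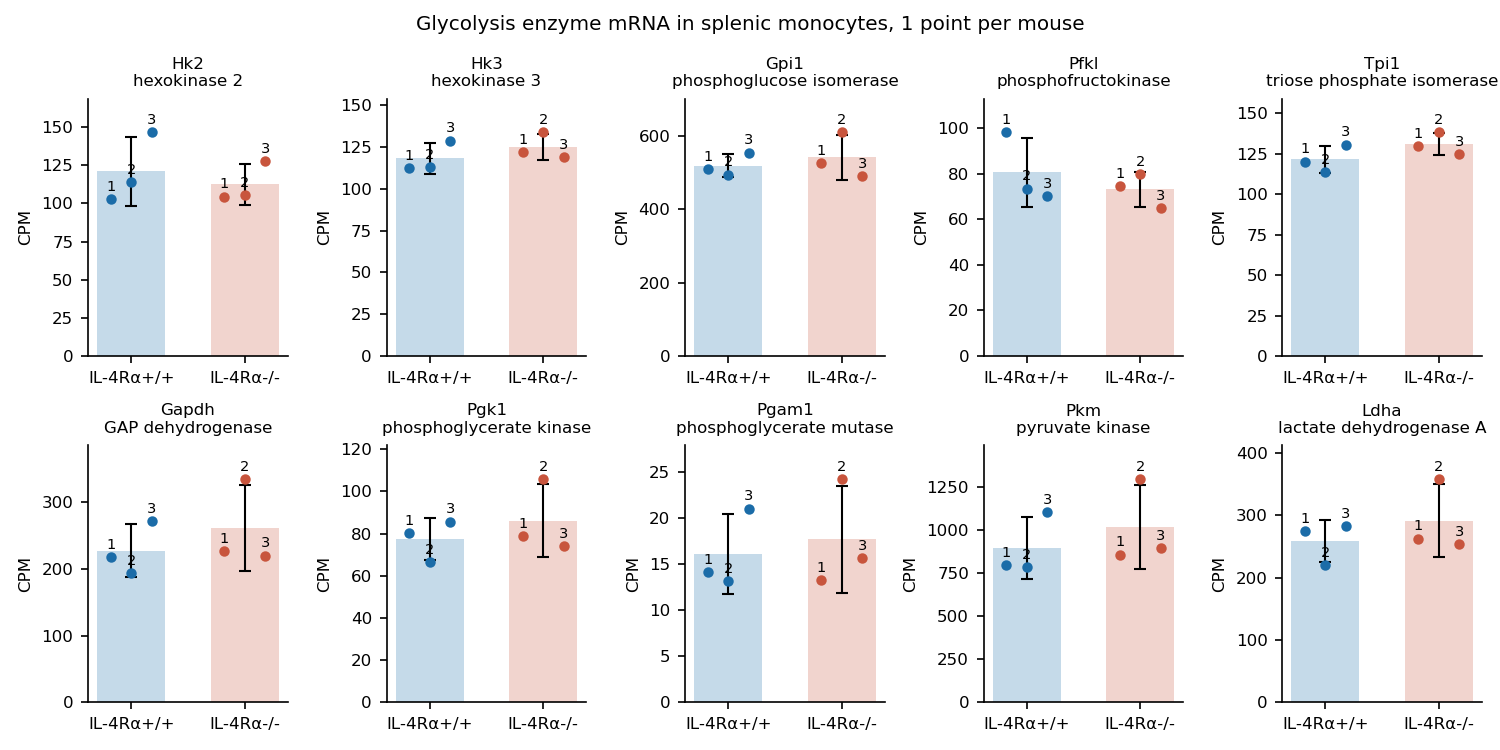
Level of each of the 10 enzyme mRNAs in CPM (vertical axis, starting at 0) in IL-4Rα+/+ (blue) and IL-4Rα-/- (red) mice. Points are single mice with their replicate number, bars are means and error bars are SD (n = 3). The genotypes overlap in every panel, and IL-4Rα-/- replicate 2 is the highest library for 8 of the 10 genes.

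Per kilobase of annotated exon, the scale on which genes can be compared, *Pkm* was the most abundant at 191 ± 40.6 (SD over the 6 libraries) CPM per kilobase, and its range of 157 to 260 did not meet that of any other member. *Ldha* at 83.2 ± 13.9 and *Gpi1* at 82.2 ± 7.0 CPM per kilobase did not differ beyond their spread. *Gapdh* followed at 59.1 ± 12.4 and *Tpi1* at 45.9 ± 3.15, with overlapping ranges, then *Pgk1* at 36.5 ± 6.01 and *Hk3* at 33.0 ± 2.31, which overlapped as well. The ranges of *Gpi1* and *Gapdh*, and of *Tpi1* and *Pgk1*, also met. *Hk2* at 19.6 ± 2.90 CPM per kilobase lay below *Hk3* in every library, and *Pfkl* at 11.5 ± 1.73 and *Pgam1* at 8.51 ± 2.34 were lowest and overlapped. The exon lengths include every annotated transcript, which lowers the level of genes with long further forms. *Gapdh* has 4133 bases of exon beside a main transcript of 1420 bases, and *Pfkl* 6675 beside 3730.

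The authors counted uniquely mapped reads only, and this bears on *Gapdh*, *Pgk1* and *Pgam1* because glycolysis genes have many processed pseudogenes. Of the stretches of 75 bases, the read length, in the main *Gapdh* transcript, 80.3% occur in another annotated gene as well. They are spread over 121 genes, 114 of them pseudogenes, and the reads counted on those genes came to 8.09 to 12.6% of the *Gapdh* count. The share was 67.5% for *Pgk1*, 40.6% for *Pgam1*, 15.6% for *Pkm*, 14.8% for *Gpi1*, 5.38% for *Ldha* and 2.48% for *Tpi1*. It was 0% for *Hk2*, *Hk3* and *Pfkl*. Per 1000 stretches found in no other gene, *Gapdh* moved from rank 4 to rank 1 of the 10 genes with 921 ± 193 CPM, ahead of *Pkm* with 481 ± 102 CPM (SD, 6 libraries). A level of *Gapdh* below that of *Pkm* therefore depends on how length is counted, while the length cancels from differences between mice within a gene. Whether the share of reads lost to similar genes differed between mice was not tested. Reads with a mismatch and reads from transcripts outside the annotation were not considered.

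**Figure D2:**
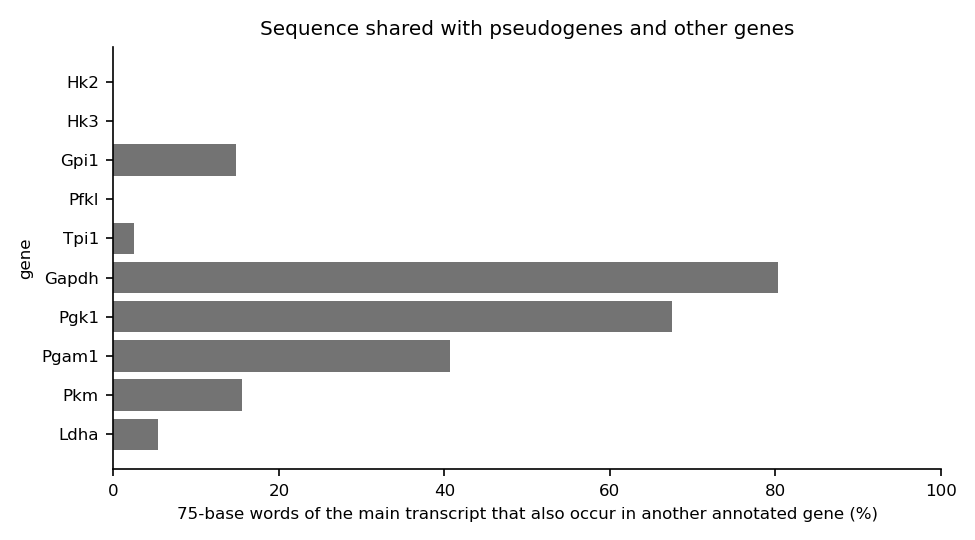
Share of the 75-base stretches of each main transcript that also occur in another annotated gene (horizontal axis, percent, 0 to 100), 1 bar per enzyme. *Gapdh* at 80.3% and *Pgk1* at 67.5% are the highest, and *Hk2*, *Hk3* and *Pfkl* are at 0%.

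None of the 10 enzymes passed the test between the genotypes. With the quasi-likelihood test of edgeR, 0 of the 10 genes passed an adjusted p of 0.15, the threshold of the study, and 0% of the 13849 genes tested did. The adjusted p-values of the 10 genes ran from 0.716 for *Tpi1* to 0.876 for *Pgam1*. None of the 10 had an unadjusted p under 0.05, against 8.09% of all genes, and for none did the CPM ranges of the genotypes separate, against 15.5% of all genes. DESeq2 called 0.483% of 15742 genes at the same threshold and 0 of the 10, whose smallest adjusted p was 0.905, and with it too none of the 10 was under an unadjusted p of 0.05.

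The estimates were small beside their errors. 8 of the 10 genes lay higher in IL-4Rα-/- mice, where 51.5% of all genes did, and the median of the 10 log2 fold changes was 0.12 against 0.0084 over all genes. *Gapdh* had the estimate farthest from 0, a log2 fold change of 0.20 ± 0.20 (SE) in IL-4Rα-/- over IL-4Rα+/+ mice, with a 95% interval of 0.822- to 1.59-fold and 228 ± 39.6 against 261 ± 64.4 CPM (SD, n = 3). *Pkm* followed with 0.18 ± 0.21 and an interval of 0.807- to 1.60-fold, and *Ldha* with 0.17 ± 0.16 and 0.857- to 1.48-fold. *Tpi1*, with the smallest error, had 0.11 ± 0.084 and an interval of 0.938- to 1.24-fold. *Hk2* and *Pfkl*, the members below 0, had log2 fold changes of -0.11 ± 0.15 and -0.14 ± 0.15. The intervals of the 10 genes together reached from 0.695- to 1.74-fold, both ends set by *Pgam1* at 3 mice per group.

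Summed over the 10 genes, the level was 2328, 2187 and 2797 CPM in IL-4Rα+/+ and 2397, 3189 and 2387 CPM in IL-4Rα-/- mice. The means of 2437 ± 319 and 2658 ± 460 CPM (SD, n = 3) differed by 220 CPM, less than the spread in either genotype. IL-4Rα-/- replicate 2 was the only mouse whose removal turned the direction. Without it the summed level was 45.5 CPM lower in IL-4Rα-/- mice (a difference of -45.5 CPM), the median log2 fold change of the 10 genes was -0.028, and the estimates of *Gpi1*, *Gapdh*, *Pgk1*, *Pgam1*, *Pkm* and *Ldha* fell below 0, to between -0.16 and -0.0055. *Pfkl* turned to 0.026 without IL-4Rα+/+ replicate 1 and *Hk2* to 0.057 without IL-4Rα+/+ replicate 3. *Hk3* and *Tpi1* stayed above 0 whichever mouse was left out. Without IL-4Rα+/+ replicate 3 the summed difference widened to 400 CPM and the median log2 fold change to 0.20. With IL-4Rα+/+ replicate 3 and IL-4Rα-/- replicate 2 left out together, a choice made after seeing the data, the median was 0.090.

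**Figure D3:**
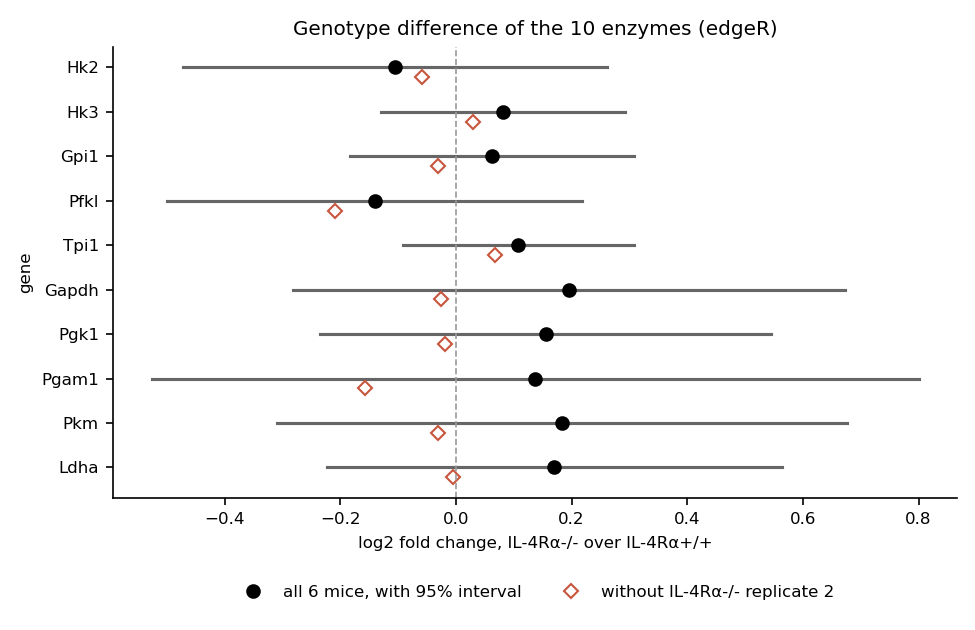
Log2 fold change of the 10 enzymes in IL-4Rα-/- over IL-4Rα+/+ mice (horizontal axis) by gene. Filled points are the edgeR estimates over 6 mice with 95% intervals, which all cross 0, and open diamonds are the estimates without IL-4Rα-/- replicate 2, where only *Hk3* and *Tpi1* are above 0.

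The mice differed within the genotypes in a way most of the enzymes shared. IL-4Rα-/- replicate 2 was the highest of the 6 libraries for 8 of the 10 genes, and IL-4Rα+/+ replicate 3 was the highest of its genotype for 9. These libraries were the highest pair for 8 of the 10 genes, all but *Hk2* and *Pfkl*, while 17.4% of all genes tested had them as the highest pair. The pair was singled out after the values were seen. Averaged over the 10 genes, log2 CPM lay 0.27 above its mean in IL-4Rα-/- replicate 2 and 0.13 above it in IL-4Rα+/+ replicate 3, and between -0.19 and -0.064 in the other 4 libraries.

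The same libraries stood apart in several monocyte markers. Spleen holds Ly6C-high classical monocytes, marked by *Ccr2* and *F13a1*, and Ly6C-low ones that depend on *Nr4a1* and carry *Ace*, *Spn*, *Cd300e* and *Treml4*. *Ccr2* was 1668 CPM in IL-4Rα+/+ replicate 3 and 2008 CPM in IL-4Rα-/- replicate 2, against 380 to 1045 CPM elsewhere. *Ace* was 1088 and 710 CPM there, against 1604 to 2774 CPM elsewhere. *Ly6c2* did not single out these libraries, with 242, 380 and 427 CPM in IL-4Rα+/+ and 339, 592 and 503 CPM in IL-4Rα-/- mice. The mean log2 CPM of *Ly6c2*, *Ccr2* and *F13a1* less that of the 5 Ly6C-low genes was -1.81, -0.18 and 1.37 in IL-4Rα+/+ and -0.32, 2.04 and 0.31 in IL-4Rα-/- mice. With this balance as a covariate in edgeR, chosen after seeing the data, the log2 fold change of *Pkm* went from 0.18 to 0.0049 ± 0.11 (SE), that of *Gapdh* from 0.20 to 0.039 ± 0.15 and that of *Pgam1* from 0.14 to -0.11 ± 0.17. That of *Hk2* moved away from 0, from -0.11 to -0.17 ± 0.14. *Tpi1* and *Ldha* kept more of their estimates, at 0.071 ± 0.075 and 0.082 ± 0.16, and the median over the 10 genes was 0.016. The balance was highest in the libraries where most of the enzymes were highest, so such shifts were partly set by its choice. Without the 2 libraries of highest balance, also chosen after seeing the data, *Pkm* had 0.15 ± 0.074, *Gapdh* 0.12 ± 0.090, *Pgam1* 0.083 ± 0.14 and *Hk2* 0.10 ± 0.12. In both fits 0 of the 10 genes was called. In bulk RNA, fewer cells of a type and less RNA per cell cannot be told apart.

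IL-4Rα-/- replicate 2 also had the highest sum of the 14 neutrophil markers, 1145 CPM against 379 to 714 CPM in IL-4Rα+/+ mice. IL-4Rα+/+ replicate 3 came next with 714 CPM, as for most of the enzymes. Which cells expressed these markers was not tested. Over 12 pancreatic acinar genes, IL-4Rα-/- replicate 2 had 326 CPM against at most 36.4 CPM in any IL-4Rα+/+ mouse. The part of either set of markers in the levels of the enzymes was not tested. Summed markers overlapped between the genotypes for monocytes, neutrophils, acinar cells, T and NK cells, dendritic cells, and megakaryocytes and platelets. Those of 4 cell types did not overlap. They were those of red pulp macrophages, with 3560 to 4067 CPM in IL-4Rα+/+ and 4611 to 7209 CPM in IL-4Rα-/- mice and 10 of 10 genes higher, and of erythroid cells, with 84.4 to 144 and 199 to 483 CPM and 12 of 12 tested higher. The others were B and plasma cells, with 834 to 1142 CPM in IL-4Rα+/+ and 1158 to 1468 CPM in IL-4Rα-/- mice and 8 of 10 higher, and eosinophils, basophils and mast cells, with 78.8 to 93.4 and 135 to 217 CPM and 9 of 10 higher. Of all these lists, only that of megakaryocytes and platelets held a gene at 0 in all libraries. Monocyte markers summed to 20533 to 26203 CPM in IL-4Rα+/+ and 22445 to 27097 CPM in IL-4Rα-/- mice. A large part of these sums was *Lyz2*, with 8847 to 17025 CPM in the 6 libraries. *Csf1r*, the receptor that defines the lineage, had 2227 to 3095 CPM. What the other cells added to the genotype estimates of the enzymes was not tested. *Il4ra* itself had 137, 128 and 177 CPM in IL-4Rα+/+ and 27.9, 79.4 and 31.8 CPM in IL-4Rα-/- mice. It was lower in each IL-4Rα-/- mouse, least so in replicate 2. DESeq2 called it with an adjusted p of 0.0125, and edgeR did not, with an adjusted p of 0.618. *Xist* had 553 CPM in IL-4Rα+/+ replicate 1 and 457 CPM in IL-4Rα-/- replicate 3. The Y-linked gene *Ddx3y* had 0 and 0.101 CPM in these mice and 113 to 149 CPM in the other 4. By these genes each genotype held 1 female, and the other 4 mice were male.

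**Figure D4:**
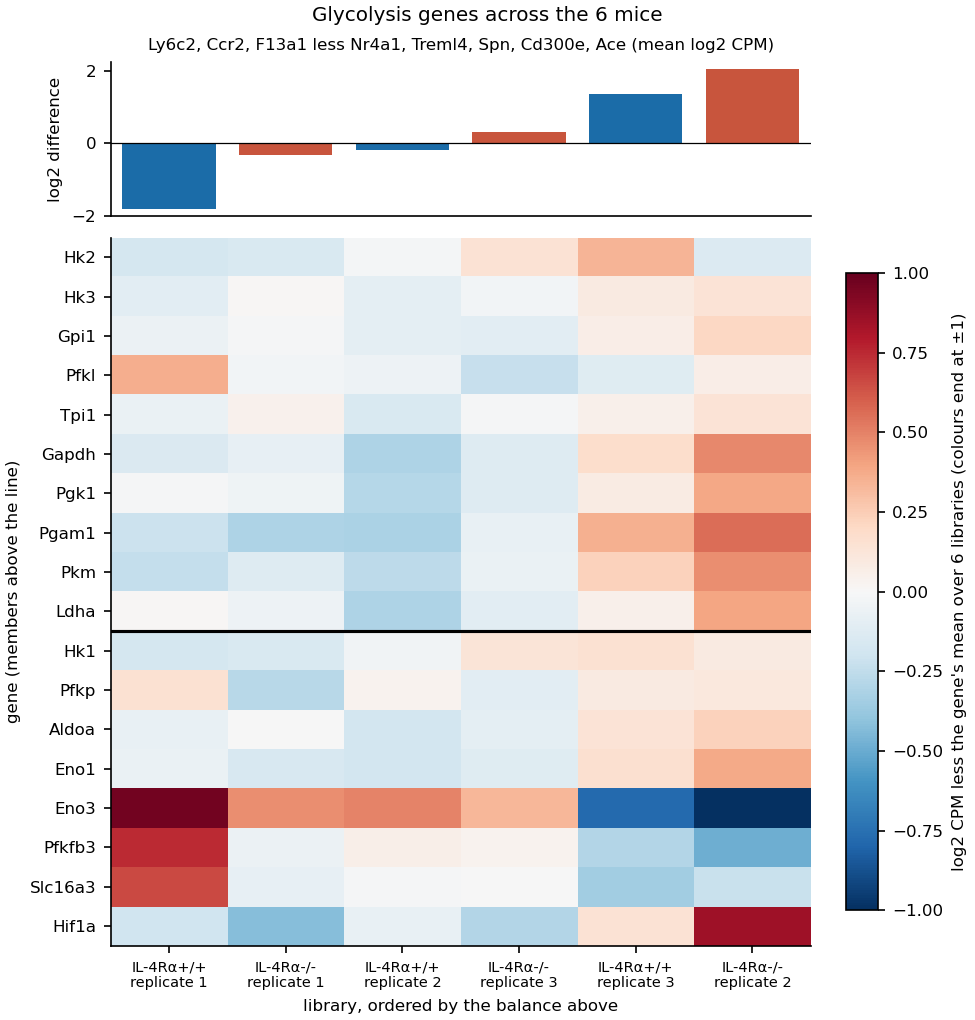
Top, mean log2 CPM of *Ly6c2*, *Ccr2* and *F13a1* less that of 5 Ly6C-low genes in each library, from -1.81 to 2.04, with IL-4Rα+/+ in blue and IL-4Rα-/- in red. Below, log2 CPM of each gene less its mean over the 6 libraries, with red above and blue below the mean, for the 10 enzymes and 8 related genes. The 2 libraries at the right are above the mean for most of the enzymes, while *Eno3* and *Pfkfb3* are below it.

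Several of the steps can be made by more than 1 enzyme, and the shares of these isoenzymes within a library do not depend on scaling between libraries. Per kilobase of exon, *Hk3* made up 50.7 ± 2.18% of the mRNA of hexokinases 1 to 3 in IL-4Rα+/+ and 52.9 ± 3.39% in IL-4Rα-/- mice (SD, n = 3), and *Hk2* 31.8 ± 2.17% and 29.4 ± 2.86%. *Pfkl* made up 48.0 ± 4.49% and 47.7 ± 3.33% of the phosphofructokinases, which include the platelet form *Pfkp* and the muscle form *Pfkm*. The size of this share depends on how length is counted. In CPM, without length, *Pfkl* had means of 80.6 in IL-4Rα+/+ and 73.1 in IL-4Rα-/- mice, and *Pfkp* 145 and 128. *Ldha* made up 90.2 ± 1.65% and 89.4 ± 5.79% of *Ldha* and *Ldhb*, with its lowest share, 83.5%, in IL-4Rα-/- replicate 3. None of the 4 shares passed the two-sided exact permutation test, with p of 0.3 for *Hk2* and *Hk3*, 0.9 for *Pfkl* and 0.8 for *Ldha*, and adjusted values of 0.6, 0.6, 0.9 and 0.9. With 3 mice against 3 this test cannot go below 0.1.

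Enolase, the step between *Pgam1* and *Pkm*, is not among the 10 genes and behaved differently. Per kilobase of exon, *Eno3*, the muscle form, made up 75.1, 70.6 and 44.2% of enolases 1 to 3 in IL-4Rα+/+ and 70.0, 29.6 and 67.4% in IL-4Rα-/- mice. The size of this share depends on how length is counted. In CPM, without length, *Eno3* was above *Eno1* only in IL-4Rα+/+ replicate 1. *Eno3* has 1490 stretches of 75 bases found in no other gene and *Eno1* has 675. A share per such stretch was not computed for enolase. Its level was 325, 234 and 96.8 CPM in IL-4Rα+/+ and 230, 59.5 and 209 CPM in IL-4Rα-/- mice, so it was lowest in the libraries where most of the 10 enzymes were highest. *Eno1*, the common form, had 320, 295 and 375 CPM in IL-4Rα+/+ and 300, 436 and 308 CPM in IL-4Rα-/- mice, and followed the enzymes. In the main *Eno1* transcript, 65.4% of the stretches of 75 bases are shared with other genes, among them its retrogene copy *Eno1b* and are counted only where a read maps once. Neither gene was called (adjusted p of 0.831 for *Eno3* and 0.888 for *Eno1*, edgeR).

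**Figure D5:**
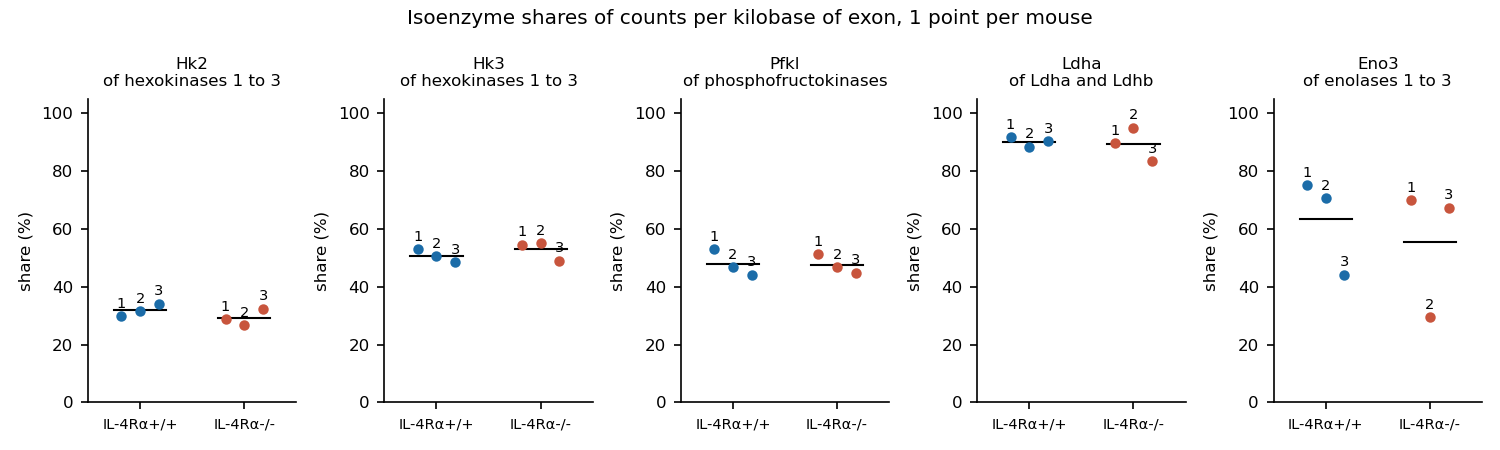
Share of *Hk2*, *Hk3*, *Pfkl*, *Ldha* and *Eno3* among the isoenzymes of their step, from counts per kilobase of exon (vertical axis, percent, from 0). Points are single mice with their replicate number and lines are means. *Eno3* falls to 44.2% in IL-4Rα+/+ replicate 3 and 29.6% in IL-4Rα-/- replicate 2, and the other shares overlap between genotypes.

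The lists of related genes gave no call either. Of 99 genes in 8 further lists, 83 were tested, 43 were higher and 40 lower in IL-4Rα-/- mice, and 0 were called by edgeR or DESeq2. An unadjusted p under 0.05 was found for 6 of them, 1 higher and 5 lower, and the CPM of the genotypes separated for 7. Over all genes tested these shares were 8.09% and 15.5%, so 6 and 7 of 83 are not above the background. Among the other enzymes of glycolysis, 7 of 11 lay higher and the median log2 fold change was 0.077. *Aldoa*, the aldolase that splits fructose 1,6-bisphosphate, was the most abundant of them with 485, 449 and 562 CPM in IL-4Rα+/+ and 508, 599 and 476 CPM in IL-4Rα-/- mice.

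All 5 genes that set fructose 2,6-bisphosphate, the activator of phosphofructokinase, lay lower in IL-4Rα-/- mice, while 51.5% of all genes lay higher. Their median log2 fold change of -0.22 stayed between -0.29 and -0.18 in every alternative run, but these runs reuse the same 6 mice. *Pfkfb4* had 145, 156 and 148 CPM in IL-4Rα+/+ and 116, 140 and 130 CPM in IL-4Rα-/- mice, without overlap (log2 fold change -0.22 ± 0.090, unadjusted p = 0.0435 and adjusted p = 0.618, edgeR). *Pfkfb3* had 243, 151 and 119 CPM in IL-4Rα+/+ and 140, 103 and 149 CPM in IL-4Rα-/- mice, which overlapped. None of the 5 was called. The third named gene of the list, *Tigar*, which degrades fructose 2,6-bisphosphate, had a log2 fold change of -0.062 ± 0.13 (SE) and an adjusted p of 0.876 (edgeR).

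The 9 transport genes tested split into 4 higher and 5 lower. *Bsg*, the chaperone of lactate transporters, had 140 ± 13.6 CPM in IL-4Rα+/+ and 165 ± 18.5 CPM in IL-4Rα-/- mice (SD, n = 3). *Slc16a3*, the lactate exporter MCT4, had 141 ± 52.1 and 117 ± 8.71 CPM, and *Slc2a6*, a hexose transporter, had 126 ± 28.6 and 101 ± 0.888 CPM. None of the 3 was called, with adjusted p-values of 0.623, 0.749 and 0.632 in that order (edgeR).

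Of the 13 genes tested that guide pyruvate into mitochondria, 8 lay higher and 5 lower, and 3 had an unadjusted p under 0.05, where 8.09% of all genes did. *Pdk3*, a kinase that inactivates pyruvate dehydrogenase, had 34.3, 37.9 and 42.2 CPM in IL-4Rα+/+ and 43.1, 47.4 and 48.2 CPM in IL-4Rα-/- mice (log2 fold change 0.28 ± 0.098, SE). *Pdp2*, a phosphatase that reactivates the complex, had 24.7, 22.7 and 22.0 CPM against 19.6, 15.2 and 18.8 CPM (-0.37 ± 0.12). *Pdpr*, the regulatory subunit of that phosphatase, had 32.5, 38.4 and 28.5 CPM against 27.0, 21.2 and 25.2 CPM (-0.44 ± 0.14). The genotypes did not overlap for these 3 genes, as for 15.5% of all genes. In edgeR the unadjusted p-values were 0.0273, 0.0194 and 0.0185 in that order, and all had an adjusted p of 0.618. The abundant subunits *Pdha1*, *Pdhb* and *Dld* had log2 fold changes of -0.22 ± 0.10, -0.0086 ± 0.062 and 0.083 ± 0.084.

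In the pentose phosphate pathway, which branches off at glucose 6-phosphate, 6 of 8 genes lay higher. *Taldo1* and *Pgd* were highest in the libraries in which most of the 10 enzymes were, with 747 and 568 CPM in IL-4Rα-/- replicate 2, and *Tkt* was not, with 577 CPM there and 732 CPM in IL-4Rα+/+ replicate 1. Of 12 genes of gluconeogenesis and glycogen, 6 lay higher and 6 lower. *Pygl*, *Ugp2* and *Pygb*, the most abundant of them, had log2 fold changes of -0.11 ± 0.10, 0.16 ± 0.13 and 0.10 ± 0.093.

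Among 12 transcription factors of glycolytic genes, 6 lay on each side of 0. *Hif1a*, the oxygen-sensitive subunit of HIF-1, had 124, 135 and 158 CPM in IL-4Rα+/+ and 106, 257 and 117 CPM in IL-4Rα-/- mice, so it too was highest in IL-4Rα-/- replicate 2. *Sp1* had 173, 185 and 159 CPM in IL-4Rα+/+ and 145, 137 and 155 CPM in IL-4Rα-/- mice, without overlap (log2 fold change -0.24 ± 0.089, unadjusted p = 0.0298 and adjusted p = 0.618, edgeR). *Mlxipl*, which encodes ChREBP, had 5.94, 1.81 and 0.453 CPM against 0.714, 0.455 and 0.541 CPM, and *Mlxip*, which encodes its paralogue MondoA, had 178 ± 19.5 against 156 ± 15.1 CPM (SD, n = 3). For *Mlxipl*, IL-4Rα+/+ replicate 1 stood apart from the other 5 mice. Of 13 other targets of HIF-1, 6 lay higher and 7 lower, and *Ddit4*, *Bnip3l* and *P4ha1* had log2 fold changes of -0.86 ± 0.58, -0.19 ± 0.14 and -0.017 ± 0.21.

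The genes whose log2 CPM followed the mean of the 10 enzymes most closely over the 6 libraries were *Tpgs1*, *Sec11a*, *Nudcd1*, *Magi3* and *Lbp*, with Pearson correlations from 0.998 down to 0.991. *Sec11a* ran from 68.3 CPM in IL-4Rα+/+ replicate 2 to 92.2 CPM in IL-4Rα-/- replicate 2, and *Lbp* from 1.95 to 25.4 CPM in the same libraries. Of 13839 genes outside the 10, 591 had a correlation above 0.9. With 6 points that share depth and the differences in monocyte markers, this is a description only.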

How the data were processed

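Reads of 75 bp from polyadenylated RNA were aligned by the authors to GRCm38 with STAR 2.6.1a, per the labels and the methods of the study. The deposited values are raw counts of uniquely mapped reads per gene, without normalization, in 1 file per mouse. Which strand column of STAR was kept is not given in the sources used here, so genes that overlap another on the opposite strand (*Hk2*, *Hk3*, *Gpi1*, *Tpi1*, *Gapdh*) and *Pkm*, which overlaps *Gm49759* on its own strand, are uncertain. Reads that were unmapped, multimapping, outside genes or ambiguous were left out of library sizes and tests and made up 1.32 to 1.66%, 8.30 to 9.35%, 8.87 to 11.7% and 1.39 to 1.52% of each library.

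Of 55421 gene identifiers, 55240 matched the Gencode annotation at hand, which gave symbols, positions and lengths. Genes were filtered with filterByExpr (minimum count 10), scaled by TMM and compared by genotype in R 4.3.3 with edgeR 4.0.16 (glmQLFit and glmQLFTest). The p-values were adjusted over all 13849 genes by Benjamini-Hochberg and read at 0.15. The study used DESeq2, which was run here as version 1.42.0 as an alternative. Both tools were checked on simulated data with planted changes, larger than any estimate of the enzymes and with the same dispersion for every gene. What smaller changes the tests could find in mice as varied as these was not tested. Isoenzyme shares were tested by exact permutation of the mice (two-sided, 20 labelings) and adjusted over 4 shares. Replicates are separate mice. Same-numbered mice were not treated as pairs.

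The members, lists and tests were chosen with earlier results of these data known. Named were the 10 enzymes, *Il4ra*, of each list the 3 most abundant genes and those with an unadjusted p under 0.05, and the 5 genes most like the mean of the enzymes. The isoenzymes, promoters and markers come on top of that rule. Alternatives changed scaling, filter, tool, threshold, block and length trend, and left out each mouse. The covariates *Xist* and monocyte marker balance, the removal of the 2 libraries of highest balance, and shares per unique stretch were chosen after seeing the data. Counting error alone sets a floor of 3 counts for a gene seen, far below every enzyme here. The protein sequences were not used here.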

Additional observations from a re-analysis of the deposited data

Results flagged for a closer look

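Reads that STAR mapped to several places enter none of the gene counts. They made up 9.19, 9.35 and 9.02% of the reads in IL-4Rα-/- replicates 1, 2 and 3, each above the 8.30, 8.32 and 8.86% of IL-4Rα+/+ replicates 1, 2 and 3. The reads do not name a gene in these files, so how many came from *Gapdh*, *Pgk1*, *Pgam1* or their pseudogenes is not known.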

How the results depend on the processing

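No alternative called any of the 10 enzymes, and their smallest adjusted p ran from 0.439 to 0.905 over 17 settings. Over all genes edgeR called 0, DESeq2 76, and edgeR 1 when the 2 libraries of highest monocyte marker balance were left out together; the cause was not tested. Of 160 recomputed log2 fold changes of the enzymes, 150 kept their sign. With the length trend removed, the median of the 10 enzymes was 0.067, against 0.12 in the main fit. *Pgam1* turned to -0.11 with the balance as covariate and *Hk2* to 0.10 without those 2 libraries. Leaving out 1 mouse in turn gave ranges of -0.21 to 0.057 for *Hk2*, -0.030 to 0.13 for *Gpi1*, -0.23 to 0.026 for *Pfkl*, -0.026 to 0.34 for *Gapdh*, -0.020 to 0.26 for *Pgk1*, -0.16 to 0.38 for *Pgam1*, -0.031 to 0.36 for *Pkm* and -0.0055 to 0.26 for *Ldha*. The difference in the share of *Pfkl* turned to 0.513 percentage points on raw counts and 0.383 per unique stretch, and ran from -2.23 to 2.15 points without single mice; that of *Ldha* ran from -3.62 to 2.16 points. Whether the replicate numbers pair the mice is not known. Correlations of same-numbered mice were 0.185, -0.271 and -0.296. They rest on few mice, which also differed in *Xist* and monocyte marker balance, so they cannot decide whether the mice were paired. A fit with the replicate number as a block called 0 genes and 0 of the enzymes, with 765 genes at an unadjusted p under 0.05 and a smallest adjusted p of 0.812. *Pgam1*, the enzyme with the fewest counts, 363 to 691 per library, had the widest interval; what a greater depth would change was not tested.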
